A study of Mus musculus with 17 samples.

Results

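Apold1, Adamts1, Klf2, Klf4, Ccn1 and Sgk1 are inducible genes with known roles in blood vessels and glia, the cells in which CBP is left intact in CBP-ifKO mice. These 6 genes, of the 55471 in the table of counts, were chosen by name, with their level after the last injection of pentylenetetrazol (PTZ) known, so that their PTZ45 values are given as a description and carry no test. The data were gene counts from total RNA of the hippocampus of C57BL/6 mice aged 3 to 6 months, in 17 libraries. The methods state individual male mice for the saline-treated libraries only, and for the others the p-values measure the spread between samples, which may be technical. CBP-ifKO mice carried a floxed Crebbp gene, which encodes the lysine acetyltransferase CBP, and an inducible Cre (creERT2) driven by Camk2a in forebrain excitatory neurons. Controls were littermates that the methods describe as lacking creERT2, although the labels name Camk2a_creERT2 for every library, and mice of either genotype received tamoxifen 5 times. Sal mice received saline and were not kindled. Kindling means repeated injection of PTZ, a convulsant, on alternate days. The last injection of kindled mice, a week later, was saline in the PTZ0 groups and PTZ at 45 mg/kg in the PTZ45 groups, and hippocampi were taken 45 min after it. The paper reports that repeated PTZ brought seizures in controls, while CBP-ifKOs did not reach the progressive seizure stage. Kindled therefore means here only that the injections were given. Control PTZ45 had 2 libraries and every other group had 3.

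Each group was sequenced in 1 lane, and Control PTZ45 and CBP-ifKO Sal shared one, Control Sal and Control PTZ0 another, and the CBP-ifKO PTZ0 and PTZ45 groups the last. Genotype and lane therefore cannot be told apart in any comparison of controls with CBP-ifKOs of the same treatment, and neither can treatment and lane in PTZ45 against Sal, in PTZ45 against PTZ0 in controls or in PTZ0 against Sal in CBP-ifKOs. Library totals ran from 5831992 to 18735643 counts. Crebbp, the targeted gene, had 1824 to 2429 normalized counts (counts divided by the DESeq2 size factors of all 17 libraries) in the 8 control libraries and 1061 to 1337 in the 9 CBP-ifKO libraries, without overlap. Markers of excitatory neurons were present in every library, with summed levels of 50498 to 68307. Choroid plexus markers, led by Ttr and Kl, summed to 11227 to 45864 in 5 libraries, 1 in each group other than Control PTZ45, and to 445 to 1197 in the other 12.

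The 6 genes have different products. Klf2 and Klf4 encode zinc finger transcription factors of the Krüppel-like family, which endothelial cells induce under laminar flow. Apold1 encodes an apolipoprotein L domain protein that was described as an early response gene of the vasculature. Ccn1 (also called Cyr61) encodes a secreted matricellular protein, and Adamts1 encodes a secreted metalloproteinase that cleaves proteoglycans such as versican. Sgk1 encodes a serum- and glucocorticoid-regulated kinase that is expressed in oligodendrocytes and neurons as well as vessels. In whole tissue the cell that made an RNA was not measured, and fewer cells of a type cannot be told apart from less RNA in each cell.

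The sequences before the start sites of the genes are shown because CBP was first known as a partner of the factor CREB, which binds the cAMP response element (CRE). RefSeq windows of 250 bases upstream of each start site (build GRCm38.p6) were found for 6 of 6 genes and were searched on both strands for 10 motifs. The CRE core TGACG was found upstream of Apold1, Adamts1, Klf2, Klf4 and Ccn1, and in 1 of the 6 start windows of Sgk1, against 17.77% of the 32851 windows of the same length. The full CRE, TGACGTCA, which contains the core, was in none of them and in 1.55% of all windows. TATAAA ended 27 bases before the starts of Apold1 and Adamts1 and 20 bases before that of Ccn1, and was in 2 windows of Sgk1, and 12.37% of all windows held it. A match describes letters and shows no binding. In the lines for Ccn1 (chr3:145649986-145650235, minus strand) and Adamts1 (chr16:85803114-85803363, minus strand), capitals mark the CRE core (CGTCA on the opposite strand), TATAAA and, in Ccn1, CATTCC, the reverse of the TEAD motif GGAATG (in 12.64% of windows), which is known for YAP targets.
Ccn1: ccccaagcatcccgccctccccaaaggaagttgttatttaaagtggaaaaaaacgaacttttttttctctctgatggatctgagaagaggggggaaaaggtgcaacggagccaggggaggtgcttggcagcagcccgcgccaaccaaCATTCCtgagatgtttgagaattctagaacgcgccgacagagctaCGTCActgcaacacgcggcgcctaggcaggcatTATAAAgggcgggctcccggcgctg
Adamts1: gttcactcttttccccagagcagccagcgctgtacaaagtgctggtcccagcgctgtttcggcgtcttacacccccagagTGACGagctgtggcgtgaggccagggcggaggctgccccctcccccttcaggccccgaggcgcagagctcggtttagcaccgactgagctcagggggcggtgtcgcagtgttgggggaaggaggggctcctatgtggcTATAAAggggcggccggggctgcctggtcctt
The stretch of Apold1 (chr6:134981949-134981974, plus strand) runs from its CRE core to TATAAA and lies inside the GENCODE gene model, which starts further upstream.
Apold1: CGTCAttggctcctgggagcTATAAA
The Klf2 window (chr8:72318812-72319032, plus strand, cut where the GENCODE gene begins) held the core and the only match to the MEF2 motif among the 6 genes, found in 1.69% of windows, and both are in capitals. MEF2 factors are known to drive Klf2 in endothelium.
Klf2: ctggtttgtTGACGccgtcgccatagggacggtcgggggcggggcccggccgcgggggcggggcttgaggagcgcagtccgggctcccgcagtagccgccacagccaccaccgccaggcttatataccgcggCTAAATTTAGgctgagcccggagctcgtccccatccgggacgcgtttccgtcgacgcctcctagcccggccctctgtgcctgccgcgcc
Sgk1 has 6 start windows in RefSeq, and that before the start at 21993890 of chromosome 10, inside the longest gene model, held the palindromic glucocorticoid response element (chr10:21993681-21993735, plus strand). The motif, in capitals here, was present in 3 of the 32851 windows.
Sgk1: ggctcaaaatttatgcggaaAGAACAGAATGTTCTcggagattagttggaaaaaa

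All 6 genes are protein coding, and none of 55230 GENCODE M21 gene models of the table overlaps them. On GRCm38 they lie at chr6:134981718-134986836 (Apold1, ENSMUSG00000090698), chr16:85793827-85803113 (Adamts1, ENSMUSG00000022893), chr8:72319033-72321656 (Klf2, ENSMUSG00000055148), chr4:55527143-55532466 (Klf4, ENSMUSG00000003032), chr3:145646976-145649981 (Ccn1, ENSMUSG00000028195) and chr10:21882184-21999903 (Sgk1, ENSMUSG00000019970). Per kilobase of exon, the level in Control Sal was highest for Sgk1 (236 ± 26.4 normalized counts per kb, SD, n = 3) and Adamts1 (64.5 ± 4.56). Klf2 (20.0 ± 2.21), Apold1 (14.6 ± 1.86), Ccn1 (13 ± 2.04) and Klf4 (9.73 ± 3.24) were lower, and neighbours in this order from Apold1 to Klf4 differed by no more than their SDs together. In Control PTZ45 (n = 2) the order was Sgk1 (263 ± 28.8 per kb), Adamts1 (145 ± 19.5), Ccn1 (111 ± 7.11), Apold1 (55.0 ± 8.06), Klf2 (38.1 ± 2.31) and Klf4 (19.5 ± 0.574), so that Ccn1 had moved above Klf2 and Apold1. In the 12 Sal and PTZ0 libraries Klf4, Ccn1 and Klf2 rested on few reads, with 11 to 44 raw counts of Klf4, 12 to 39 of Ccn1 and 15 to 61 of Klf2, while Sgk1 had 371 to 1624.

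**Figure D1:**
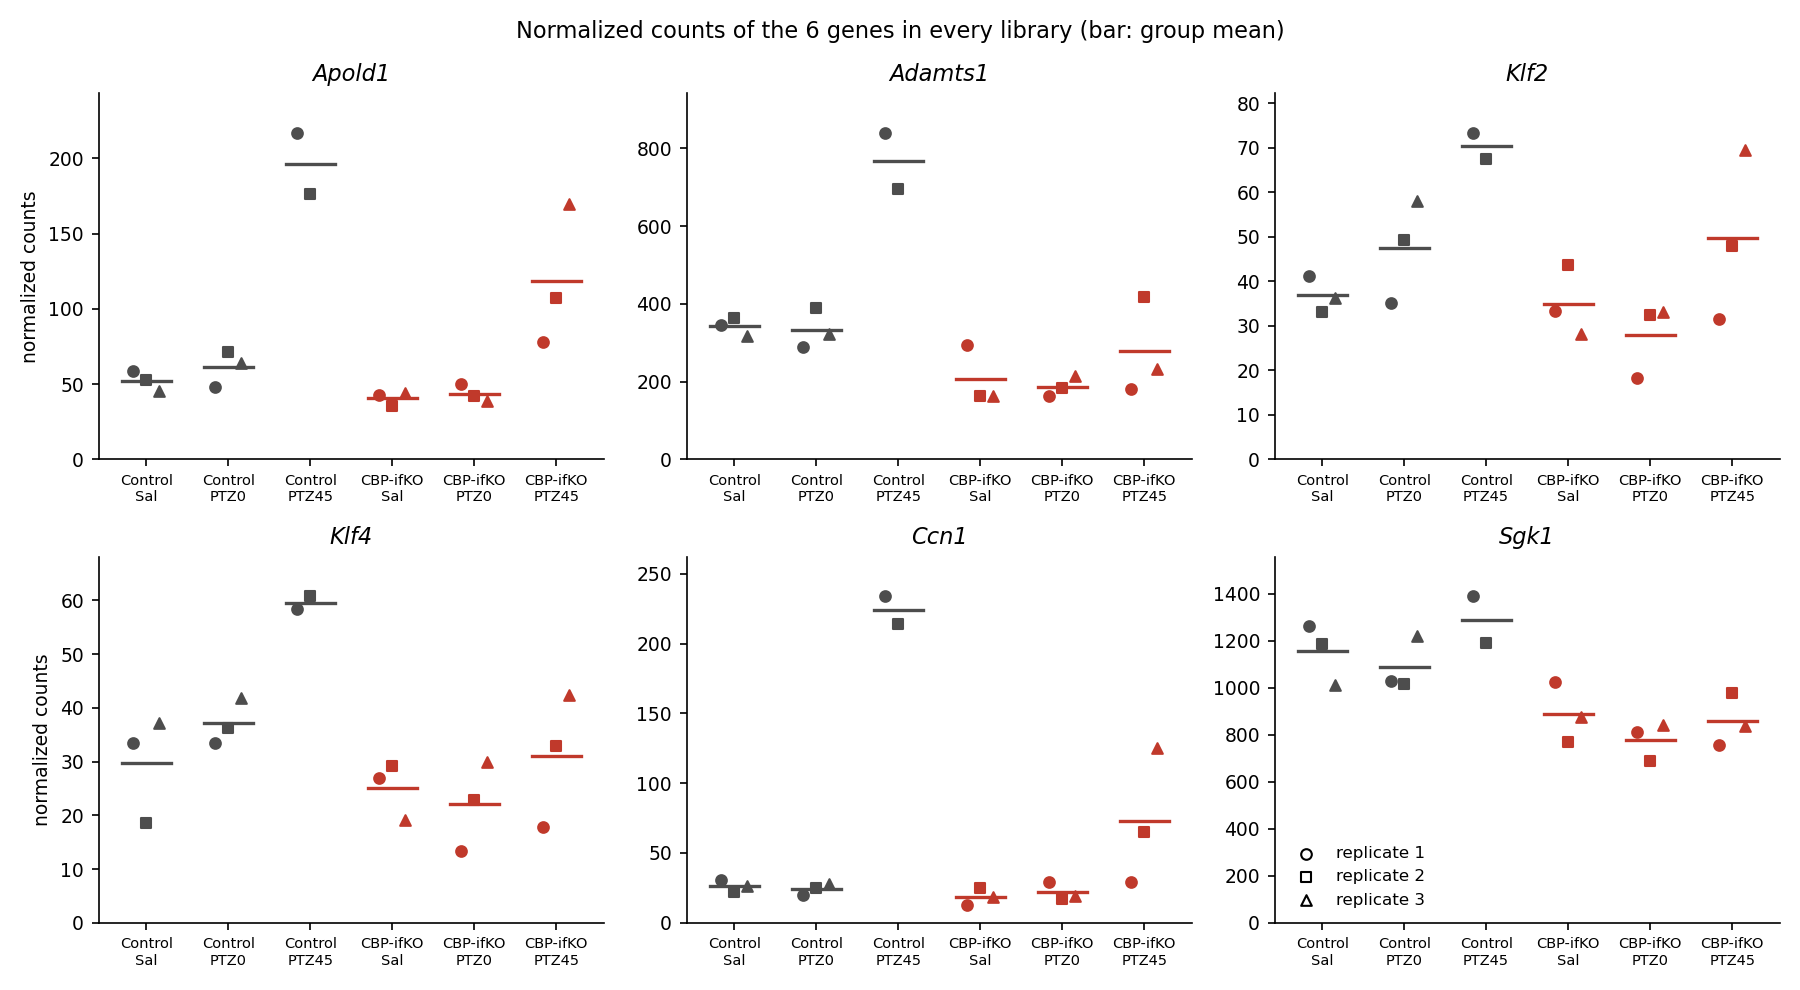
Normalized counts of each gene (vertical axis, from 0) in every library, by group (horizontal axis); points are libraries, shaped by replicate number, grey for controls and red for CBP-ifKOs, and bars are group means. The Control PTZ45 points stand above every Control Sal point for 5 genes and not for Sgk1, and the CBP-ifKO PTZ45 points are spread widely.

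The first comparison sets controls that were kindled and then given the last PTZ injection against controls that were not kindled, so that kindling and the last injection enter it together. In controls, 5 of the 6 genes were higher in both PTZ45 libraries than in every Sal library, and Sgk1 was not. Of all genes averaging 20 or more normalized counts, 17.1% were higher without overlap. Ccn1, the matricellular protein, had 30.4, 22.2 and 26.2 normalized counts in Control Sal and 234 and 214 in Control PTZ45, an 8.41-fold level (log2 fold change 3.07, standard error (SE) 0.26). It had the largest fold change of the 6, and no Sal library came near the PTZ45 libraries. Apold1 had 58.4, 52.9 and 45.2 in Sal and 217 and 176 in PTZ45 (3.75-fold, log2 1.91, SE 0.24). Adamts1 had 345, 364 and 316 in Sal and 840.1 and 694 in PTZ45 (2.25-fold, log2 1.17, SE 0.13), again with a clear gap between the groups.

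The Krüppel-like factors changed less. Klf2 had 41.3, 33.2 and 36.2 normalized counts in Control Sal and 73.4 and 67.4 in Control PTZ45 (1.89-fold, log2 0.92, SE 0.32). Klf4 had 33.5, 18.5 and 37.1 in Sal and 58.4 and 60.8 in PTZ45 (1.97-fold, log2 0.98, SE 0.37). The libraries did not overlap for either gene, but the 95% intervals reached down to log2 changes of 0.29 and 0.25. Sgk1 had 1265, 1187 and 1013 in Sal and 1390.2 and 1191 in PTZ45, so that its ranges overlapped (log2 0.16, SE 0.12). Against Control PTZ0, which shares the PTZ45 libraries, the log2 changes were 3.22 for Ccn1, 1.69 for Apold1, 1.21 for Adamts1, 0.57 for Klf2, 0.68 for Klf4 and 0.24 for Sgk1.

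In CBP-ifKOs the same injection was followed by levels that differed widely between the 3 libraries. Ccn1 had 12.8, 24.9 and 18.5 normalized counts in CBP-ifKO Sal and 29.4, 65.0 and 125 in CBP-ifKO PTZ45 (4.07-fold, log2 2.03, SE 0.44). Apold1 had 42.9, 35.3 and 44.3 in Sal and 77.8, 107 and 169.8 in PTZ45 (2.83-fold, log2 1.50, SE 0.29). These were the 2 genes whose CBP-ifKO libraries did not overlap, where 7.39% of genes averaging 20 or more were higher in that way. Without CBP-ifKO PTZ45 replicate 3 the log2 changes were 1.40 for Ccn1 and 1.15 for Apold1.

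For the other 4 genes the CBP-ifKO ranges overlapped. Adamts1 had 294, 164 and 164 normalized counts in CBP-ifKO Sal and 181, 418 and 233 in PTZ45 (log2 0.41, SE 0.46). Klf2 had 33.3, 43.6 and 28.1 in Sal and 31.5, 48.0 and 69.6 in PTZ45 (log2 0.54, SE 0.36), and Klf4 had 26.9, 29.1 and 19.2 in Sal and 17.9, 33.0 and 42.4 in PTZ45 (log2 0.33, SE 0.42). Sgk1 had 1026, 769.8 and 874 in Sal and 757, 977 and 838 in PTZ45 (log2 -0.07, SE 0.13). Against CBP-ifKO PTZ0, which was sequenced in the same lane, the log2 changes were 1.76 for Ccn1, 1.45 for Apold1, 0.57 for Adamts1, 0.81 for Klf2, 0.46 for Klf4 and 0.14 for Sgk1.

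**Figure D2:**
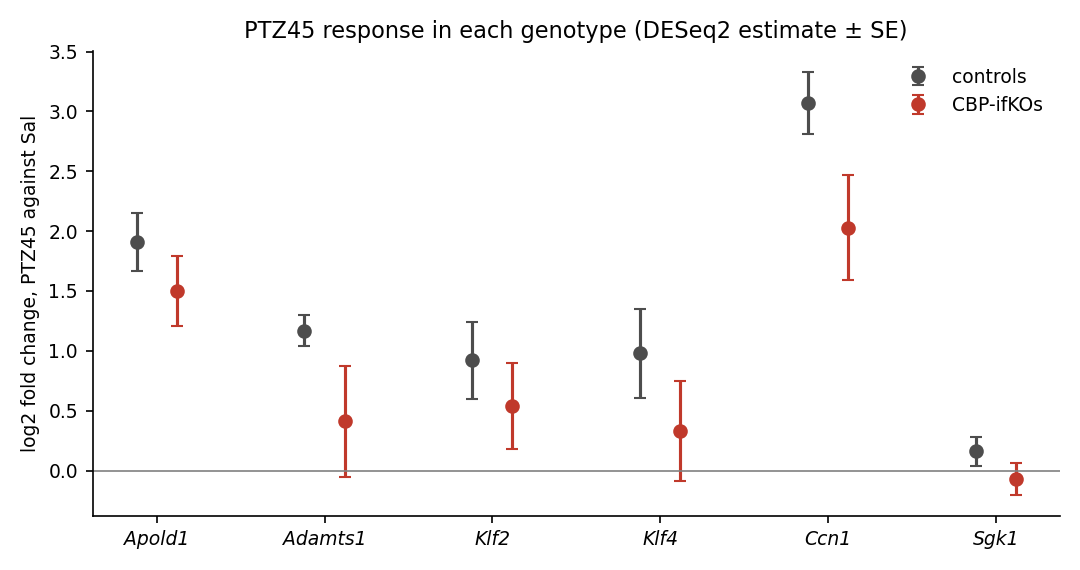
Log2 fold change of PTZ45 against Sal (vertical axis) for each gene (horizontal axis), in controls (grey) and CBP-ifKOs (red); points are DESeq2 estimates and bars are ± SE. The CBP-ifKO estimate is below the control estimate for every gene, from 2.03 against 3.07 for Ccn1 to -0.07 against 0.16 for Sgk1, and the bars of Ccn1 and Adamts1 do not overlap.

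The share of the control response that CBP-ifKOs kept was computed as the gain over Sal in CBP-ifKO PTZ45 divided by the gain over Sal in controls, on normalized counts. Apold1 kept 53.7% of the control gain, Klf2 43.9%, Ccn1 27.5%, Klf4 20.2% and Adamts1 16.5%. Sgk1 has no share because its control log2 change was under 0.5. Fos and Npas4, transcription factors that active neurons induce, kept 7.60% and 3.53%, and Arc, a synaptic immediate early gene, kept 8.86%. Over the 112 genes called higher in controls with a log2 change of 0.5 or more, averaging 50 or more normalized counts, the median share was 10.4% (quartiles 4.60% and 17.6%), and among them Apold1 ranked 2, Ccn1 13 and Adamts1 34. These ranks describe genes that were chosen on the same contrasts, and no difference between their shares and those of the neuronal genes was tested.

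The mean shares hide a wide spread between libraries. For Apold1 the 3 CBP-ifKO PTZ45 libraries had shares of 25.6%, 45.9% and 89.5%. For Ccn1 they were 5.41%, 23.4% and 53.7%, for Klf2 -10.3%, 38.8% and 103%, and for Klf4 -24.0%, 26.5% and 58.1%, where a share below 0 means a level under the CBP-ifKO Sal mean. In these 4 genes replicate 1 was the lowest and replicate 3 the highest library. Adamts1 had -6.23%, 49.5% and 6.14%, with replicate 2 highest. Fos had the order of the 4 genes, with 163, 249.9 and 288 normalized counts against 2915 and 2483 in Control PTZ45, and so did Npas4 (109, 154 and 212) and Arc (843, 929 and 1289). Every CBP-ifKO PTZ45 library was below both Control PTZ45 libraries for Apold1, Adamts1, Klf4, Ccn1 and Sgk1, as were 18.1% of genes averaging 20 or more normalized counts, whereas replicate 3 of Klf2 lay between them. Seizure scores were not analysed here, and the part of seizures in the genotype differences was not tested.

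Leaving out replicate 3 lowered the share to 35.8% for Apold1, 14.4% for Ccn1, 14.3% for Klf2 and 1.25% for Klf4, and leaving out replicate 1 raised the last 2 to 71.0% and 42.3%. Of the 5 genes, Apold1 alone kept a share of over 25% in every library and with each library left out. On the log2 scale, where the ratio of the log2 fold changes is taken, the shares were larger, at 78.6% for Apold1 (SE 18.3), 65.9% for Ccn1 (SE 15.4), 58.6% for Klf2 (SE 43.7), 35.4% for Adamts1 (SE 39.6) and 33.6% for Klf4 (SE 44.8). The neuronal genes had 47.8% for Fos, 37.1% for Npas4 and 23.2% for Arc on this scale. The median over the same 112 genes was 19.4%, and Apold1 ranked 1, Ccn1 3 and Adamts1 18. No difference between these log2 shares was tested. With PTZ0 in place of Sal as the baseline, the linear shares were 55.2% for Apold1, 25.7% for Ccn1, 20.8% for Adamts1, 94.9% for Klf2 and 40.2% for Klf4.

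**Figure D3:**
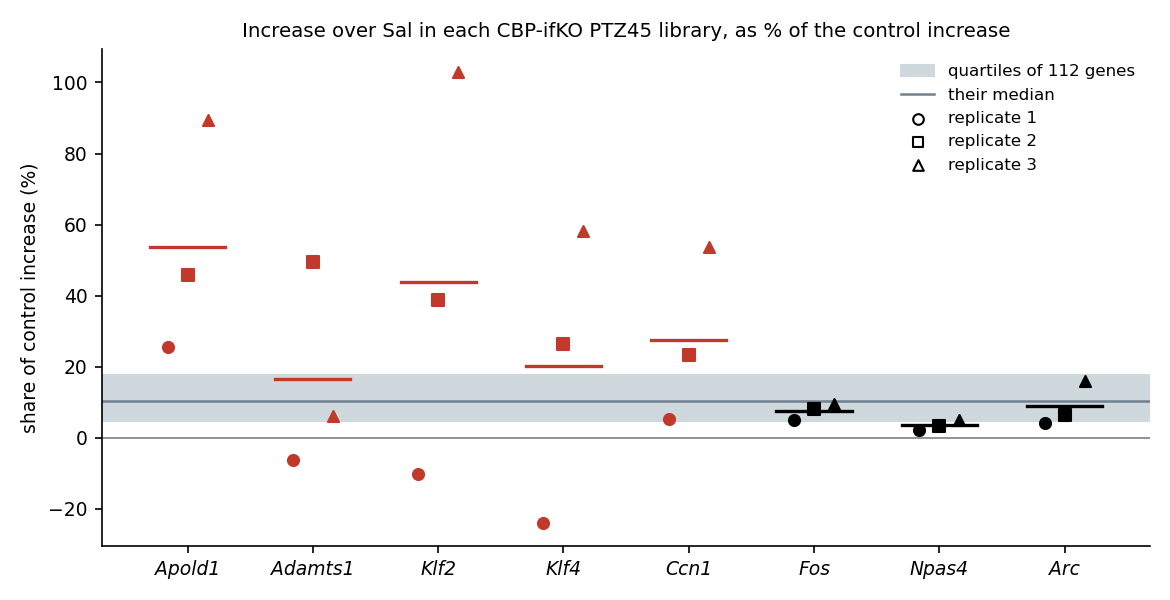
Gain over the CBP-ifKO Sal mean in each CBP-ifKO PTZ45 library, as a percentage of the mean control gain (vertical axis), for the 5 genes with a control response (red) and for Fos, Npas4 and Arc (black); points are libraries shaped by replicate, bars are means, and the band and line give the quartiles and median of 112 genes called higher in controls. Apold1 lies above the band in all 3 libraries, while the other red genes range from below 0 or inside the band to well above it.

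The genotype by PTZ45 interaction gives the difference between the log2 changes of the genotypes, and it was negative for 6 of 6 genes. It was -1.07 for Ccn1 (95% interval -2.55 to 0.40), -0.75 for Adamts1 (-1.79 to 0.28), -0.65 for Klf4 (-1.69 to 0.39), -0.42 for Apold1 (-1.16 to 0.33), -0.37 for Klf2 (-1.26 to 0.51) and -0.22 for Sgk1 (-0.58 to 0.13). With a library left out it ran from -1.64 to -0.64 for Ccn1, -1.20 to -0.41 for Adamts1, -0.93 to -0.36 for Klf4, -0.77 to -0.19 for Apold1, -0.68 to -0.13 for Klf2 and -0.33 to -0.11 for Sgk1. These values are descriptions and carry no test. For comparison, the interaction, called lower by DESeq2 for 0.329% of the genes tested, was -3.18 for Fos (SE 0.52), -3.88 for Npas4 (SE 0.57) and -1.88 for Arc (SE 0.32), with DESeq2 adjusted p of 7.5e-07, 8.1e-09 and 3.19e-06. Fos, Npas4 and Arc, too, were chosen with earlier results of these data known. Direct comparison in PTZ45 gave CBP-ifKO levels of 60.0% of controls for Apold1, 36.2% for Adamts1, 70.3% for Klf2, 52.1% for Klf4, 32.6% for Ccn1 and 66.5% for Sgk1. On the log2 scale these differences were -0.74 (SE 0.27), -1.46 (SE 0.47), -0.51 (SE 0.35), -0.94 (SE 0.40), -1.62 (SE 0.71) and -0.59 (SE 0.12) in the same order. With a library left out they ran from -1.08 to -0.51 for Apold1, -1.89 to -1.23 for Adamts1, -0.82 to -0.26 for Klf2, -1.22 to -0.66 for Klf4, -2.24 to -1.25 for Ccn1 and -0.70 to -0.47 for Sgk1.

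PTZ0 against Sal asks what kindling left behind without a further dose of PTZ. This contrast did not choose the genes, although its Sal libraries were the baseline of the one that did. In controls, 0 of the 6 genes were called by DESeq2, as against 0.00843% of 35602 genes, and edgeR called 0. The log2 changes ran from -0.14 for Ccn1 to 0.35 for Klf2, and 0 of the 6 had an unadjusted p under 0.05. The libraries overlapped for 6 of 6 genes, whereas 4.22% of genes averaging 20 or more were higher and 3.96% lower without overlap. In CBP-ifKOs, 0 of the 6 genes were called by DESeq2 (0.0112% of 35705 genes) and 0 by edgeR, again with 0 unadjusted p under 0.05. Here the log2 changes ran from -0.27 for Klf2 to 0.27 for Ccn1, and the libraries again overlapped for 6 of 6 genes, where 3.38% of genes were higher and 2.51% lower without overlap. For Sgk1, the most deeply counted gene, the 95% intervals were -0.27 to 0.10 in controls and -0.44 to 0.04 in CBP-ifKOs, and for Klf2 they were -0.24 to 0.94 and -1.02 to 0.49.

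Adamts1 and Sgk1 were lower in CBP-ifKOs without the last PTZ injection. These comparisons set CBP-ifKOs against controls of the same treatment, and genotype and lane cannot be told apart in any of them. They were tested in libraries that include Sal, which the choice of genes used as a baseline, and PTZ0, which it did not. The fit in Sal and the fit over Sal and PTZ0 are therefore not independent of the choice, and the PTZ0 fit alone used none of its libraries. PTZ0 mice had also received the earlier PTZ injections. In PTZ0 mice, Adamts1 had 288, 390.0 and 323 normalized counts in controls and 162, 184 and 215 in CBP-ifKOs, or 56.7% of the control level (log2 -0.82, SE 0.15, DESeq2 adjusted p = 4.96e-06). Sgk1 had 1031, 1018 and 1219.7 in controls and 811, 687 and 841 in CBP-ifKOs, or 71.6% (log2 -0.48, SE 0.10, DESeq2 adjusted p = 4.99e-05). The groups did not overlap for either gene. DESeq2 thus called 2 of the 6 genes lower, where it called 5.25% of the 12752 genes tested lower. The call of Adamts1 was lost when all 17 libraries were fitted together (DESeq2 adjusted p = 0.0887), and over the alternatives its adjusted p ran from 4.15e-06 to that value, while that of Sgk1 ran from 3.35e-05 to 0.0161.

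The other 4 genes were also at lower mean levels in CBP-ifKO PTZ0, and DESeq2 gave them no adjusted p because their counts were below its independent filter. Klf2 had 35.1, 49.2 and 58.1 normalized counts in controls and 18.3, 32.5 and 33.1 in CBP-ifKOs (log2 -0.74, SE 0.34), and Klf4 had 33.4, 36.3 and 41.9 in controls and 13.4, 22.9 and 30 in CBP-ifKOs (log2 -0.72, SE 0.38). With Adamts1 and Sgk1, these made 4 of 6 genes whose CBP-ifKO libraries were all below the controls, as were 13.8% of genes averaging 20 or more. Apold1 (log2 -0.49, SE 0.28) and Ccn1 (log2 -0.16, SE 0.41) overlapped. Under the count filter in place of independent filtering, the DESeq2 adjusted p was 0.281 for Klf2, 0.387 for Klf4, 0.464 for Apold1 and 0.952 for Ccn1.

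In Sal mice Adamts1 had 345, 364 and 316 normalized counts in controls and 294, 164 and 164 in CBP-ifKOs, without overlap. It was at 61.6% of the control level (log2 -0.70, SE 0.19, DESeq2 adjusted p = 0.0176), and was the only gene of the 6 called lower, as were 1.77% of 15004 genes. This call was lost with edgeR (adjusted p = 0.189), with 1 DESeq2 fit of all libraries (0.192), and without any 1 of the 3 Control Sal libraries or of CBP-ifKO Sal replicates 2 and 3, with DESeq2 adjusted p from 0.0859 to 0.255. It was strongest without CBP-ifKO Sal replicate 1 (log2 -1.06, adjusted p = 6.69e-07 in DESeq2). Sgk1 was at 77.4% in Sal (log2 -0.37, SE 0.12, DESeq2 adjusted p = 0.0716), and was called in 4 of 13 alternatives. The DESeq2 adjusted p was 0.814 for Apold1, 0.96 for Klf2 and 0.912 for Klf4, and Ccn1 had none. Apold1 and Adamts1 were the 2 genes whose Sal libraries did not overlap, in the direction that 10.8% of genes showed.

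Fitted over Sal and PTZ0 together, with 6 libraries of each genotype and treatment in the model, the genotype differences were -0.76 for Adamts1 (95% interval -1.02 to -0.50, DESeq2 adjusted p = 5.8e-07) and -0.42 for Sgk1 (-0.58 to -0.27, DESeq2 adjusted p = 8.41e-06). Both calls held in all 19 alternatives, with adjusted p of up to 0.00478 for Adamts1 and 0.00246 for Sgk1. These 2 of 6 were called, where 9.04% of 17398 genes were called lower. Over these 12 libraries Adamts1 had 288 to 390.0 normalized counts in controls and 162 to 294 in CBP-ifKOs, and Sgk1 had 1013 to 1265 and 687 to 1026, so that the highest CBP-ifKO library lay above 1 control library for Adamts1 and above 2 for Sgk1. The remaining estimates were -0.51 for Klf4 (DESeq2 adjusted p = 0.132), -0.44 for Klf2 (0.148), -0.41 for Apold1 (0.0766) and -0.39 for Ccn1 (0.329). Apold1 was called by edgeR (adjusted p = 0.0487) and Klf4 by DESeq2 without Control Sal replicate 2 (adjusted p = 0.0478). The median over the 6 genes was -0.43, and the median over all genes tested was 0.01.

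**Figure D4:**
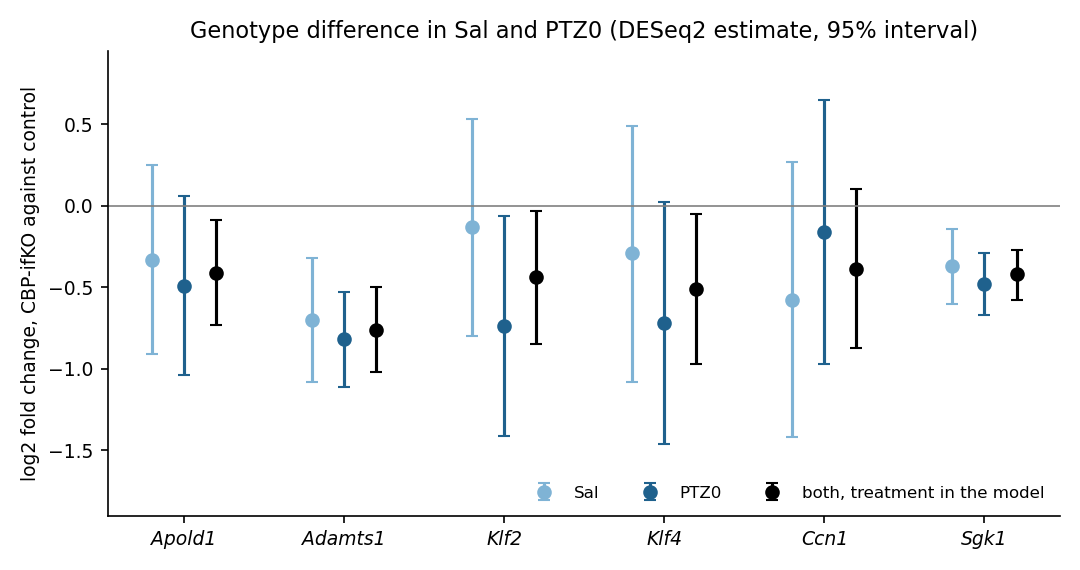
Log2 fold change of CBP-ifKO against control (vertical axis) for each gene (horizontal axis) in Sal (light blue), in PTZ0 (dark blue) and over both with treatment in the model (black); points are DESeq2 estimates and bars are 95% intervals. All estimates are below 0, and those of Adamts1 and Sgk1 have intervals below 0 in all 3 fits.

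Within groups, but not between them, Adamts1 was highest where choroid plexus and endothelial markers were highest. The Control PTZ45 libraries had the highest Adamts1 of all (840.1 and 694) with choroid plexus sums of 944 and 807 and endothelial sums of 5746 and 5535. In each of the 5 groups that had a library rich in choroid plexus markers, that library had the highest Adamts1 of its group, and also the highest summed endothelial markers. Its mural marker sum was the highest in 3 of the 5 groups. In CBP-ifKO Sal it was replicate 1, with 294 normalized counts of Adamts1 against 164 and 164, a choroid plexus sum of 45864 against 699 and 539, and an endothelial sum of 6376 against 5295 and 5053. In CBP-ifKO PTZ45 it was replicate 2, with 418 against 181 and 233, a choroid plexus sum of 31325 against 607 and 562, and an endothelial sum of 6004 against 5244 and 5959. The part of either cell type in the level of Adamts1 was not tested separately. Sgk1 was highest in the rich library in 3 of the 5 groups, Apold1, Klf2 and Klf4 in 1 each, and Ccn1 in 0.

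Without those 5 libraries, an alternative added after the values had been seen, Adamts1 was at 53.2% of controls over Sal and PTZ0 (log2 -0.91, SE 0.12, DESeq2 adjusted p = 6.06e-12) and at 49.3% in Sal alone (adjusted p = 0.000563 in DESeq2), each a larger difference than with all libraries. In PTZ0 alone its log2 difference was -0.81 (DESeq2 adjusted p = 0.01), close to that with all libraries. Sgk1 was at 69.5% over Sal and PTZ0 (log2 -0.53, SE 0.09, DESeq2 adjusted p = 2.4e-06). In the PTZ45 comparison the share of the control gain that Adamts1 kept was 9.89% without the 5 libraries, and -0.0439% without CBP-ifKO PTZ45 replicate 2 alone. The shares of Apold1 (58.1%), Klf2 (46.5%), Klf4 (24.8%) and Ccn1 (28.3%) moved less without the 5 libraries.

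**Figure D5:**
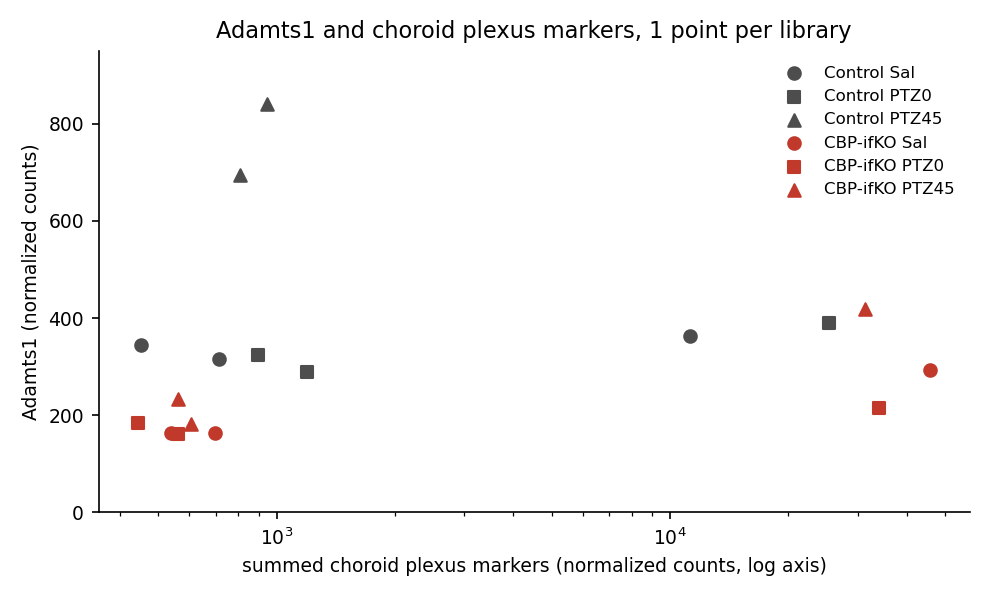
Adamts1 in normalized counts (vertical axis, from 0) against the summed level of 10 choroid plexus markers (horizontal axis, log scale), with 1 point per library, grey for controls and red for CBP-ifKOs, shaped by treatment. Each of the 5 points at the right, with sums of 11227 or more, is the highest of its own group, and the Control PTZ45 points are the highest of all with sums of 944 and 807.

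No endothelial or mural marker was called in the PTZ45 comparisons, where DESeq2 called 0.939% of genes higher in controls and 0.329% lower in the interaction. At such shares, 0 called in lists of 20 and 12 markers says little about these cells. The 20 endothelial markers, led by Slco1a4 and Slco1c1, summed to 5535 to 5746 normalized counts in Control PTZ45 and 5244 to 6004 in CBP-ifKO PTZ45, within the 5053 to 6376 of all 17 libraries. Of these 20 markers 0 were called in PTZ45 against Sal in either genotype or in the interaction by DESeq2 or by edgeR, with log2 changes of -0.53 to 0.15 in controls and 1 unadjusted p under 0.05 there. Over Sal and PTZ0, DESeq2 called 2 of the 20 lower in CBP-ifKOs, Ly6c1 (log2 -0.36, SE 0.12) and Slc2a1, the glucose transporter of the blood-brain barrier (log2 -0.22, SE 0.07), a share close to the 9.04% of all genes called lower. The 12 mural markers, led by Rgs5 and Cspg4, summed to 2551 to 2777 in Control PTZ45 and 2174 to 2535 in CBP-ifKO PTZ45, without overlap. Their sums did not overlap in PTZ0 either (2778 to 2952 in controls, 2283 to 2675 in CBP-ifKOs), but did in Sal (2761 to 2877 and 2074 to 2877). In the PTZ45 comparisons 0 mural markers were called by either tool. There was 1 unadjusted p under 0.05 in PTZ45 against Sal in CBP-ifKOs and 1 between the genotypes in PTZ45. Over Sal and PTZ0, DESeq2 called 2 of 10 mural markers lower in CBP-ifKOs, Rgs5 (log2 -0.21, SE 0.06) and Cspg4 (log2 -0.28, SE 0.09), and edgeR called 2.

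Astrocyte markers, led by Slc1a2 and Slc1a3, were called lower over Sal and PTZ0 for 5 of 12, and oligodendrocyte markers, among them Mbp, for 6 of 10, with medians of -0.13 and -0.22 on the log2 scale, where 9.04% of all genes were called lower. These calls are by DESeq2, and edgeR called 5 of the astrocyte and 4 of the oligodendrocyte markers. Microglia markers, among them Csf1r, were called for 0 of 10 by DESeq2 and by edgeR, with 3 unadjusted p under 0.05. Markers of fibroblasts and meninges, led by Dcn and Col1a2, had a median of -0.45 with 1 of 9 called, and summed to 1216 to 1944 in Control Sal and PTZ0 and 583 to 1749.7 in CBP-ifKO Sal and PTZ0. Interneuron markers, led by Gad1 and Reln, summed to 8245 to 9551 in all libraries, and 2 of 10 were called lower, Gad1 (log2 -0.15, SE 0.04) and Sst (log2 -0.28, SE 0.08). Of 10 excitatory neuron markers, led by Camk2a and Grin2b, Prox1 (log2 0.32, SE 0.07) and Neurod2 (log2 0.35, SE 0.08) were called higher and Nrgn (log2 -0.33, SE 0.07) lower. The part of these cell types in the lower Adamts1 and Sgk1 was not tested.

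The 5 blood markers, led by Hbb-bs and Alas2, summed to 953 to 1168 in Control Sal and to 1410.3 and 1709 in Control PTZ45. Of these, 1 of 5, Hbb-bs, was called higher (log2 0.62, SE 0.12, DESeq2 adjusted p = 9.53e-05), where 0.939% of all genes were. In CBP-ifKO PTZ45 the sums were 1726, 1301 and 887 for replicates 1, 2 and 3, against 984 to 1097 in CBP-ifKO Sal, and 0 of 5 markers were called by DESeq2 or edgeR, with 0 unadjusted p under 0.05. The lowest of these 3 sums was that of replicate 3, the highest of these libraries for Apold1, Klf2, Klf4 and Ccn1, which is 1 library. The part of blood in the values of either genotype was not tested.

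Few related genes were called in the control response. Of 30 other inducible vascular genes, 19 had an adjusted p in controls and DESeq2 called 1 of them higher after PTZ45, where 0.939% of genes were. This gene was Tiparp, which encodes an ADP-ribosyltransferase (log2 1.24, SE 0.11, DESeq2 adjusted p = 1.43e-24), and its interaction was called too (log2 -0.88, SE 0.16, DESeq2 adjusted p = 2.52e-05). Of 31 paralogues in the Klf, Ccn, Adamts and Sgk families 0 of the 29 with an adjusted p were called in controls by DESeq2 and 1 by edgeR, with 4 unadjusted p under 0.05. Of the SRF and MRTF/YAP targets 0 of 15 were called in controls by either tool, with 1 unadjusted p under 0.05. DESeq2 called 2 of 19 glucocorticoid response genes higher in controls, Errfi1, a feedback inhibitor of EGF receptor signalling (log2 1.13, SE 0.12), and Per1, a clock gene (log2 1.21, SE 0.14), and edgeR called 5 in either direction. DESeq2 also called the interactions of Errfi1 (-0.90, SE 0.21) and Per1 (-1.12, SE 0.21), whereas edgeR called 1 interaction in this list. The median over these 19 genes was -0.15 in controls, against 0.01 for all genes.

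Members of each of these lists were also called without the last PTZ injection, and those named here were picked after their values were seen. Over Sal and PTZ0, DESeq2 called 4 of 18 other inducible vascular genes lower, namely Thbd, Klf6, Csrnp1 and Pdgfb, the last a ligand that endothelium uses to recruit pericytes (log2 -0.43, SE 0.10), whereas edgeR called 2 in either direction. It called 9 of 19 glucocorticoid response genes lower and 0 higher, with a median of -0.23, among them Tsc22d3 (-0.30, SE 0.06), Mt2 (-0.47, SE 0.11) and Fkbp5 (-0.13, SE 0.05). Of 29 paralogues 10 were called lower and 2 higher, with Klf9 (-0.22, SE 0.05) and Adamts15 (-0.60, SE 0.15) lower and Adamts10 (0.27, SE 0.07) and Adamts17 (0.24, SE 0.08) higher. Of 15 SRF and MRTF/YAP targets 3 were called lower, Crim1 (-0.46, SE 0.04), Tpm1 (-0.30, SE 0.04) and Myl9 (-0.44, SE 0.14). These shares stand beside 9.04% of all genes called lower and 5.53% called higher.

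The 6 genes did not share 1 pattern over the libraries. Over the 17 libraries, Pearson correlations of log2(normalized count + 1) were highest for Apold1 with Ccn1 (0.947) and Klf2 with Klf4 (0.907), and lowest for Sgk1 with Ccn1 (0.396) and Apold1 (0.422). Adamts1 was closest to Sgk1 (0.848). Among the 8 genes most like the mean of the 6, of 13037 averaging 50 or more normalized counts, were Mir22hg (r = 0.931), Irf2bp2 (0.928), Dusp1 (0.907), C130071C03Rik (0.902), Sik1 (0.879), Btg2 (0.879) and Rheb (0.878). Of these, Dusp1, a phosphatase of MAP kinases, had log2 changes of 2.84 in controls and 1.45 in CBP-ifKOs after PTZ45, and Btg2, an antiproliferative gene, had 3.95 and 1.29. All these values share the same libraries and group differences and are descriptions.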

How the data were processed

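Per the methods, the authors extracted total RNA from hippocampus, sequenced it as 50 bp single-end reads, trimmed the reads with Trim Galore 0.6.4 after FastQC 0.11.8, aligned them to GRCm38 (mm10) with STAR 2.6.1, kept alignments of a mapping quality above 10 and counted exonic reads per Ensembl gene with Rsubread. Whether counting used the strand is not stated. The deposited values are these raw counts, without normalization, and 1 of the 18 count columns matched no sample and was not used. Library totals of 5831992 to 18735643 counts limit the precision, which is low for Ccn1, Klf2 and Klf4.

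Genes with at least 1 count were fitted with DESeq2 1.42.0 (R 4.3.3, two-sided Wald test, Benjamini-Hochberg adjustment over all genes, called below 0.05), each pair of groups alone. The combined genotype fit had treatment as a covariate, and the interaction was fitted on Sal and PTZ45 of both genotypes. Alternatives were edgeR 4.0.16 (quasi-likelihood), TMM size factors, a filter of 10 counts in 2 libraries, 1 fit of all libraries, the replicate block, a GC correction and leaving out each library. The alternative without 5 libraries rich in choroid plexus markers (summed level of 5000 or more) was chosen after seeing the data. On simulated data, DESeq2 recovered 61 of 100 genes changed by a log2 of 0.5 and 90 of 100 changed by 1 in the PTZ0 genotype comparison, on 35447 genes. The changed genes were drawn from those averaging 50 or more normalized counts. Klf2, Klf4 and Ccn1 averaged less in both PTZ0 groups, so that these rates do not apply to them. The 6 genes and all lists were chosen with earlier results of these data known. The text names the 6 genes, Crebbp, Fos, Npas4 and Arc, the genes of each list called in the PTZ45 comparisons, the 2 most abundant markers of each cell type and the 8 genes most like the 6. A few genes that this rule selects are not reported here. Comparisons involving PTZ45 are given without p for the 6 genes. Promoter windows are from RefSeq (GRCm38.p6), gene models from GENCODE M21 (99.6% of identifiers matched), and figures were drawn with matplotlib 3.10.9 in Python 3.11.15.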

Additional observations from a re-analysis of the deposited data

Results flagged for a closer look

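Among the 69 genes with a lower PTZ45 response in CBP-ifKOs by the interaction term of DESeq2 were all 7 neuronal comparator genes, 3 of which are given here, and 3 genes of the other lists. All these lists were chosen with earlier results of these data known, so that the counts called are descriptions. The paper had also reported a weaker induction of Fos and Npas4 in CBP-ifKOs. The interaction was -3.18 on the log2 scale for Fos (adjusted p = 7.5e-07), -3.88 for Npas4 (adjusted p = 8.1e-09) and -1.88 for Arc (adjusted p = 3.19e-06). It was -0.88 for Tiparp (adjusted p = 2.52e-05), -0.90 for Errfi1 (adjusted p = 0.00682) and -1.12 for Per1 (adjusted p = 4.02e-05), all by DESeq2. In the interaction, edgeR called 6 of the 7 neuronal comparator genes and 1 gene of the glucocorticoid response list, where DESeq2 called 7 and 2. Each of these comparisons crosses sequencing lanes, so that genotype and lane cannot be told apart.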

How the results depend on the processing

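The lower Adamts1 and Sgk1 over Sal and PTZ0 kept their direction and their call in every alternative run. The number of the 6 genes called in that fit was 2 to 3 with a library left out. In Sal, where 1 gene was called, the number was 0 by edgeR quasi-likelihood, 2 with the GC correction and 0 to 2 with a library left out. In PTZ0 it was 1 with 1 fit of all libraries, where 2 were called otherwise. The share of the control response that Ccn1 kept was 65.9% on the log2 scale. With a library left out, shares ran from -0.0439% to 27.8% for Adamts1, 35.8% to 67.7% for Apold1, 14.4% to 38.5% for Ccn1, 14.3% to 71% for Klf2 and 1.25% to 42.3% for Klf4.

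Changes of direction occurred in log2 differences that were not called. With a library left out, PTZ0 against Sal in controls ran from -0.16 to 0.06 for Adamts1, and in CBP-ifKOs from -0.04 to 0.14 for Apold1, -0.33 to 0.20 for Adamts1 and -0.43 to 0.11 for Klf4. The genotype difference of Klf2 in Sal ran from -0.27 to 0.01. Without the 5 libraries rich in choroid plexus markers, PTZ0 against Sal in CBP-ifKOs was 0.09 for Adamts1. In PTZ45 against Sal in CBP-ifKOs, a description, leaving out a library gave -0.02 to 0.76 for Adamts1 and -0.17 to 0.05 for Sgk1. The cause was not tested.

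Correlations of the deviations of same-numbered libraries ran from -0.523 to 0.479, and in no comparison with 3 pairs were all above 0.1 (PTZ0 against Sal in controls came closest, with 0.0923, 0.412 and 0.137), so that the numbers were not taken to pair the libraries. The replicate block moved 1 of 71 results, the genotype difference of Apold1 in PTZ45 (-1.09), and changed no call of the 6 genes in the tested comparisons. With 11 to 61 raw counts per Sal or PTZ0 library, the depth limits Klf4, Ccn1 and Klf2, and the 2 Control PTZ45 libraries limit every PTZ45 value.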
